A study of Mus musculus with 6 samples.

Results

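Complement is the set of plasma and membrane proteins that marks microbes, immune complexes and dying cells for removal. The genes described here are 9 complement components, regulators and receptors of the mouse: *C2*, *C3*, *C4b*, *Cfb*, *C1ra*, *C1s1*, *Serping1*, *C3ar1* and *C5ar1*. They were chosen by name as members of this system, with earlier results of these data known. The expression tables held 48734 named genes, of which 12112 averaged at least 1 FPKM and were tested. FPKM is a read density corrected for transcript length and library size. Of the 9 genes, 7 had a row of their own name and all 7 were tested. *C2* and *C1ra* had no named row, and their reads lay in rows that also cover a neighbouring gene, as described below.

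The RNA came from the Collaborative Cross strain CC016/GeniUnc, in 3 libraries labelled bone and 3 labelled osteoblasts. Bone is femoral bone from which the marrow had been spun out. The osteoblasts are labelled as BMSC-derived, that is, grown out of the stromal fraction of marrow that sticks to plastic. They were given dexamethasone at 10 nM, ascorbic acid at 50 µg/ml and beta-glycerophosphate at 10 mM for 8 days, starting 7 days after the marrow was isolated. These additions drive stromal cells to become osteoblasts, but such cultures also hold macrophages. No genotype, treatment or other agent besides the culture medium separates the groups, and the sources used here give neither the age of the mice nor which mouse gave which library. The study's methods name 3 mice, whose femora, as they read, gave both the bone and the marrow. The main tests between labels do not use such a pairing, because no source ties a library to a mouse. The 3 libraries of a label are treated as replicates because they are numbered as such. Where they do not come from separate animals, the p-values measure only the spread between these libraries.

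Complement is activated by 3 routes that meet at C3. In the classical route C1q binds its target and, of its proteases C1r and C1s, C1s cleaves C4 and C2. In the lectin route mannose-binding lectins and ficolins act through MASP proteases. In the alternative route factor B, cut by factor D, joins C3b to form a C3 convertase. Cleavage of C3 and C5 frees the small peptides C3a and C5a, which act on the receptors C3aR and C5aR of myeloid cells, while the C1 inhibitor and other regulators restrain the cascade. The liver makes most of the complement in plasma, and macrophages, fibroblasts and osteoblasts are known to make several components locally.

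The 6 libraries did not fall into the 2 labelled groups. *Hbb-bt*, which encodes a beta chain of adult haemoglobin and whose row also spans *Hbb-bs*, was at 34838, 34268 and 48649.6 FPKM in bone replicate 3 and osteoblasts replicates 2 and 3, whereas bone replicates 1 and 2 and osteoblasts replicate 1 had only 3.43 to 7.05 FPKM. These sets of 3 are called here the libraries with high and with low *Hbb-bt*. The set is a measured property and not a group of the design, so no mean or test was taken over it, and only its ranges and overlaps are given. Over the genes tested, log2(FPKM + 1) correlated at 0.965 to 0.973 between libraries of one set and at 0.640 to 0.680 between libraries of different sets. Summed neutrophil markers were at 14344 to 17324 FPKM with high *Hbb-bt* and at 0.656 to 5.51 FPKM with low *Hbb-bt*, and summed B cell markers were at 96.2 to 110 FPKM and listed at 0. Summed macrophage markers ran the other way, at 1417 to 1749 FPKM with high and 4667 to 8665 FPKM with low *Hbb-bt*. That sum was mostly *Lyz2*, at 1280 to 1596 FPKM with high and 3955 to 7332 FPKM with low *Hbb-bt*. Each set thus holds libraries of both labels. In the blood, muscle and macrophage genes and in *Sost*, given below, bone replicates 1 and 2 and osteoblasts replicates 2 and 3 went against what their labels name. *Dmp1*, the most abundant osteocyte marker, did not in these libraries. It was at 104 and 50.0 FPKM in bone replicates 1 and 2 and at 22.5 and 22.9 FPKM in osteoblasts replicates 2 and 3. However, it was highest in osteoblasts replicate 1, at 127 FPKM, and at only 24.2 FPKM in bone replicate 3. Over the 6 libraries *Dmp1* thus separated the *Hbb-bt* sets and not the labels. Whether the labels were exchanged was not tested, so every library is named by its label and every difference between labels is one between the libraries as labelled. The depth implied by the ratio of coverage to FPKM was 2.03 to 3.39 Gb of aligned bases per library, which puts 3 read pairs on a transcript of 1 kb at 0.133 to 0.221 FPKM. Features without a gene name took 71.5% of the FPKM in bone replicate 2 and 65.0% in osteoblasts replicate 1, against 27.4% to 30.7% in the other 4 libraries.

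Promoter sequence is shown for *C3* and *C3ar1*, the ligand precursor and the receptor whose levels differed in opposite directions between the *Hbb-bt* sets. Each line gives the 250 bases upstream of the RefSeq start in GRCm38.p6, read 5′ to 3′ on the minus strand that carries the gene, at chr17:57228137-57228386 for *C3* and chr6:122856158-122856407 for *C3ar1*. Capitals mark a match to one of 4 motifs searched on both strands, namely the CCAAT box, spelled as its name, the TATA box in the form TATAAA, the element of STAT factors called GAS in the form TTCNNNGAA, and the binding motif of ETS factors in the form AGGAAGT.
C3: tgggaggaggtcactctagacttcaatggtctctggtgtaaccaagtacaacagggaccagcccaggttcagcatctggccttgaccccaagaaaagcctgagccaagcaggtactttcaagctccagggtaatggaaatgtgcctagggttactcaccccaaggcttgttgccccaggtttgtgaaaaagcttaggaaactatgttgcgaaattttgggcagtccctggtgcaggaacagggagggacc
C3ar1: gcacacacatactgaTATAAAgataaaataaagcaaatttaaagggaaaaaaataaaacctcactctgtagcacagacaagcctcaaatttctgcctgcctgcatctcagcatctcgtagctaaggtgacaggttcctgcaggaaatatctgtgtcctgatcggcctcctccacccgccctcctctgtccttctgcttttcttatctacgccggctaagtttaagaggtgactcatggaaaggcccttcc
The *C3* window held none of the 4 motifs. The *C3ar1* window held a single match, TATAAA from 235 to 230 bases before the start, which is far upstream of where a TATA box lies. RefSeq promoters of the same length were available for 5 of the 9 genes, and the *C1ra* and *C1s1* windows also held no match. The *C5ar1* window held CCAAT on the opposite strand from 158 to 154 bases before the start and AGGAAGT on the opposite strand from 190 to 184 and from 72 to 66, all inside the span that RefSeq gives the gene. Of 32851 mouse promoters, TATAAA was present in 12.4%, CCAAT in 33.8%, TTCNNNGAA in 7.02% and AGGAAGT in 7.69%. A match is a run of letters and not a bound site, and its absence says nothing about the factor.

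In FPKM, the central component *C3* varied more between libraries than any other gene of the set, whereas with the named genes of each library rescaled to the same sum *C3ar1* did, with a highest value of 145 times the lowest against 67.5 for *C3*. It was at 9.83, 0.726 and 76.7 FPKM in bone replicates 1, 2 and 3, and at 3.41, 119 and 92.7 FPKM in osteoblasts replicates 1, 2 and 3. The 3 libraries with high *Hbb-bt* held the 3 highest values, and the lowest of them was 7.80 times the highest of the others. The labels overlapped, with 29.1 ± 41.5 FPKM (SD, n = 3) in bone and 71.5 ± 60.4 FPKM (SD, n = 3) in osteoblasts. Among the genes at 1 FPKM or more in a library, *C3* ranked above 95.3% to 96.8% of genes with high *Hbb-bt*. It ranked above 56.1% of genes in bone replicate 1 and 29.3% in osteoblasts replicate 1, and was under 1 FPKM in bone replicate 2. Its range over the 6 libraries was 6.11 on the log2(FPKM + 1) scale, wider than that of 99.1% of the genes tested. *C3* is on the minus strand of chromosome 17 from 57203970 to 57228136 in GRCm38.

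*C4b* and *Cfb* lie in the class III region of the major histocompatibility complex on chromosome 17, where neighbouring genes were merged in the tables. *C4b* encodes C4, the substrate of C1s. Its row runs from 34728380 to 34823464 on the minus strand and also spans *C4a*, a near-identical copy that RefSeq lists as a transcribed pseudogene. The value is thus of both, and how reads were split between them is uncertain. *Stk19-ps1*, a pseudogene with no row of its own, and *Cyp21a1*, which has one, also lie under the row on the same strand. The row was at 12.0, 1.44 and 50.9 FPKM in bone replicates 1 to 3 and at 1.86, 31.1 and 30.5 FPKM in osteoblasts replicates 1 to 3. As for *C3*, the 3 highest values were those of the libraries with high *Hbb-bt*, with a gap of 2.55-fold to the next. Bone replicate 3 was the highest of all for *C4b*, whereas osteoblasts replicate 2 was the highest for *C3*.

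The row named *Cfb*, for factor B of the alternative pathway, runs from 34856374 to 34898265 on the minus strand. It takes in the whole of *C2*, from 34862602 to 34882100, which encodes the C4b-bound protease of the classical C3 convertase. *Zbtb12*, which has a row of its own, also lies under this row on the other strand, and the library kit does not mark strand. *Cfb* and *C2* thus share 1 value, and *C2* cannot be given alone. This value was 9.65, 3.86 and 18.8 FPKM in bone and 4.87, 46.1 and 12.0 FPKM in osteoblasts, in replicate order. Osteoblasts replicate 2 stood above the rest. The libraries with high *Hbb-bt* were again above the others, but only by 1.25-fold at the nearest pair, osteoblasts replicate 3 and bone replicate 1.

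The proteases of the C1 complex were present in all 6 libraries at modest levels. *C1s1*, which encodes the C1s protease and runs on the minus strand of chromosome 6 from 124530345 to 124542359, was at 4.11, 2.89 and 5.93 FPKM in bone and at 1.69, 10.3 and 9.61 FPKM in osteoblasts. The high *Hbb-bt* libraries were above the others by 1.45-fold at the nearest pair. *C1ra*, which encodes the C1r protease, occupies 124512621 to 124523440 on the plus strand of the same chromosome, and lies with its copy *C1rb* in an unnamed row from 124512384 to 124581172. *C1s1* lies inside this span on the other strand, and the library kit does not mark strand. The unnamed row was at 12.8, 5.40 and 15.7 FPKM in bone and at 7.16, 20.2 and 16.1 FPKM in osteoblasts, and could hold reads of either gene. Its libraries came in nearly the same order as those of *C1s1*, and the nearest pair across the *Hbb-bt* sets differed by 1.23-fold. The ratio of *C1s1* to this row lay between 0.236 and 0.597 in all libraries. Its mean log2 was -1.32 ± 0.38 (SD, n = 3) in bone and -1.27 ± 0.72 (SD, n = 3) in osteoblasts. This difference of 0.05 was smaller than the spread within either label (2-sided exact permutation test over 3 against 3 libraries, p = 1, where the smallest possible is 0.1).

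*Serping1*, which encodes the C1 inhibitor that inactivates C1r and C1s, was the steadiest of the 7 genes. It was at 120, 40.7 and 70.2 FPKM in bone and 66.2, 99.7 and 81.1 FPKM in osteoblasts. The values overlapped both by label and by *Hbb-bt*. In every library *Serping1* ranked above at least 94.4% of the genes at 1 FPKM or more, and its log2 range of 1.54 was near the median of 1.45 over all genes tested. Per unit of transcript length, the inhibitor was 8.44 to 39.2 times as abundant as *C1s1* in each library. This ratio was 29.3, 14.1 and 39.2 in the libraries with low *Hbb-bt* and 11.8, 9.67 and 8.44 in those with high *Hbb-bt*, so that the sets did not overlap. *C1s1* alone was higher in all libraries with high *Hbb-bt*, as were 38.4% of the genes tested. How many other ratios separate the sets was not counted. *Serping1* is on the minus strand of chromosome 2 from 84765387 to 84778928.

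The receptor for C3a, *C3ar1*, a G protein-coupled receptor of macrophages and other myeloid cells, was low where *C3* was highest. It was at 30.5 and 18.5 FPKM in bone replicates 1 and 2 and at 17.1 FPKM in osteoblasts replicate 1. In bone replicate 3 it was at 0.492 FPKM, and in osteoblasts replicates 2 and 3 at 0.309 and 0.554 FPKM. The lowest of the first 3 was 30.9 times the highest of the last 3. The low values were above the level of 3 read pairs on 1 kb, and the mean coverage of the gene in those libraries was 1.05 to 1.41 reads per base, against 34.8 to 75.9 in the others. Among the genes at 1 FPKM or more, *C3ar1* ranked above 80.9% to 85.7% with low *Hbb-bt*. The ratio of *C3* to *C3ar1* was 0.322, 0.039 and 0.199 in the libraries with low *Hbb-bt* and 156, 384 and 167 in those with high *Hbb-bt*. *C3ar1* is on the minus strand of chromosome 6 from 122847138 to 122856161.

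The receptor for C5a, *C5ar1*, which draws neutrophils and macrophages to sites of complement activation, followed neither order. It was at 4.07, 3.28 and 13.9 FPKM in bone and at 5.71, 1.09 and 14.1 FPKM in osteoblasts. Bone replicate 3 and osteoblasts replicate 3 stood highest and osteoblasts replicate 2 lowest, although all 3 had high *Hbb-bt* and similar neutrophil marker sums. In osteoblasts replicate 2, *C5ar1* ranked above only 2.22% of the genes at 1 FPKM or more, against 73.4% in osteoblasts replicate 3. *C5ar1* is on the minus strand of chromosome 7 from 16246743 to 16259540. The ratio of *C3ar1* to *C5ar1* was 7.51, 5.63 and 0.035 in bone and 2.99, 0.283 and 0.039 in osteoblasts. The labels differed by -1.83 in mean log2 ratio, osteoblasts minus bone, within SDs of 4.35 and 3.13 (2-sided exact permutation test, n = 3 and 3, p = 0.6). Leaving out 1 library moved this difference from -0.32, without osteoblasts replicate 3, to -4.34, without bone replicate 3.

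**Figure D1:**
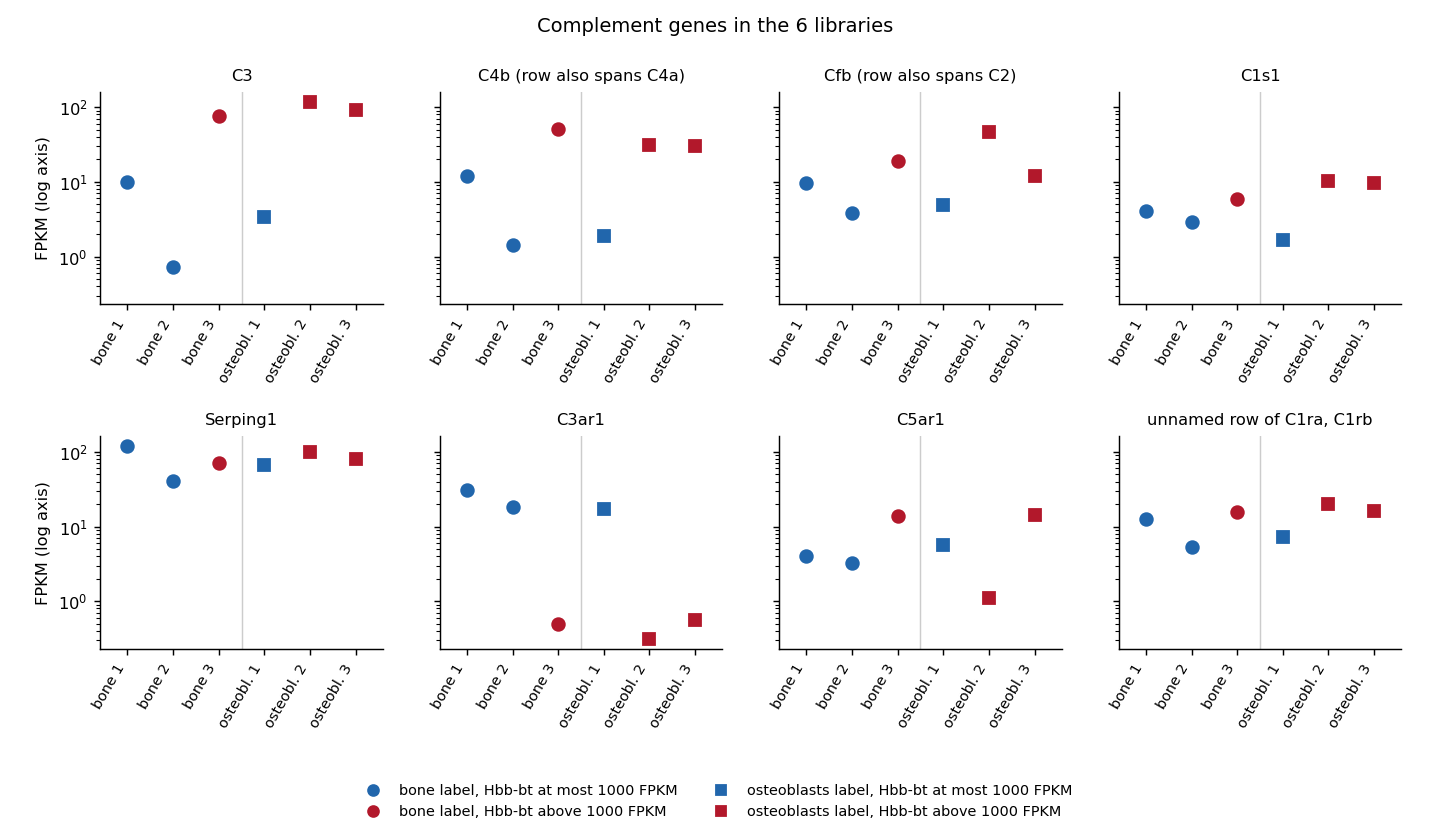
FPKM (log axis) of the 7 complement genes with a named row and of the unnamed row over *C1ra* and *C1rb*, 1 point per library, with circles for the bone label and squares for the osteoblasts label. The red points, libraries with *Hbb-bt* above 1000 FPKM, lie above every blue point for *C3*, *C4b*, *Cfb*, *C1s1* and the unnamed row and below every blue point for *C3ar1*, and the colours mix for *Serping1* and *C5ar1*.

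The plot of FPKM by library shows the pattern gene by gene. By label, none of the 7 genes separated the 3 osteoblasts libraries from the 3 bone libraries in either direction, where 0.479% of the genes tested were higher and 0.438% lower in every osteoblasts library. By *Hbb-bt*, 4 of the 7 (*C3*, *C4b*, *Cfb* and *C1s1*) were higher in all 3 libraries with high *Hbb-bt*, where 38.4% of all genes tested were. The 1 gene that was lower in all 3 was *C3ar1*, where 16.9% of all genes were. With so large a background, the counts alone do not set complement genes apart from the rest. The background depended on the scale: with the named genes of each library rescaled to a sum of 1000000, 21.4% of all genes were higher and 48.6% lower. On that scale *C3* (87.6 to 138 against 2.04 to 16.5) and *C4b* (36.1 to 58.1 against 4.04 to 20.1) remained higher and *C3ar1* (0.359 to 0.673 against 43.8 to 51.9) remained lower, whereas *Cfb* and *C1s1* overlapped. Without bone replicate 1, *Serping1* also became higher in all libraries with high *Hbb-bt*, where 56.7% of all genes then were, and without osteoblasts replicate 2 so did *C5ar1*, where 40.8% were.

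**Figure D2:**
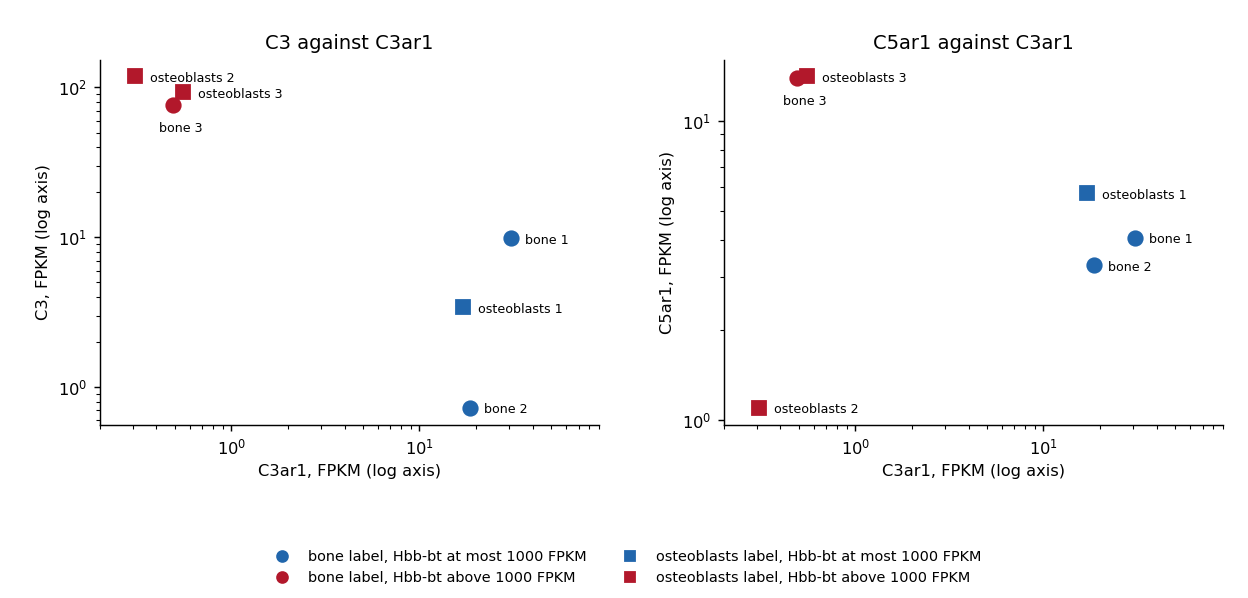
*C3* (left) and *C5ar1* (right) against *C3ar1* in each library, FPKM on log axes, with colours and symbols for *Hbb-bt* and label. The libraries with *Hbb-bt* above 1000 FPKM lie at the left, at 0.309 to 0.554 FPKM of *C3ar1*, with *C3* at 76.7 FPKM or more, while their *C5ar1* runs from 1.09 to 14.1 FPKM.

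The plot of *C3* and *C5ar1* against *C3ar1* sets ligand precursor and receptors side by side. In its left panel the libraries fill the corner of high *C3* and low *C3ar1* and the opposite corner, and each corner holds libraries of both labels. The 7 genes together summed to 191, 71.4 and 237 FPKM in bone and 101, 307 and 241 FPKM in osteoblasts. With low *Hbb-bt* the inhibitor *Serping1* made up 57.0% to 65.6% of that sum, and with high *Hbb-bt* *C3* was the largest part, at 32.4% to 38.6%.

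Across the deposited labels, with all 6 libraries, no complement gene was called different. limma on log2(FPKM + 1) called 0 of 12112 genes at an adjusted p under 0.05. This was 0 in the direction of osteoblasts (0% of genes) and 0 in the direction of bone (0%). In the same limma fit 17 genes had an unadjusted p under 0.05, far below the share of 0.05 that would fall there with no difference. Each label held libraries of both *Hbb-bt* sets and the spread within labels was wide, so the lack of calls does not show that the labels are alike. The difference, osteoblasts minus bone on the log2 scale, was 1.70 with an SE of 1.53 for *C3* and -1.55 with an SE of 1.28 for *C3ar1*. The differences of the other 5 were 0.27 (SE 1.22) for *C4b*, 0.60 (SE 0.81) for *Cfb*, 0.41 (SE 0.61) for *C1s1*, 0.21 (SE 0.56) for *Serping1* and -0.20 (SE 0.77) for *C5ar1*. By limma with Benjamini-Hochberg adjustment over all genes, the adjusted p was 0.999 for each of the 7. Their median difference was 0.27, where the median of all genes tested was 0.12, and leaving out 1 library moved it from -0.18, without bone replicate 2, to 1.08, without osteoblasts replicate 1. The estimates for *C3* and *C3ar1* depended on the libraries kept. Without osteoblasts replicate 1 they came to 3.22 and -2.77, with limma adjusted p of 0.0307 and 0.0301, where 300 of the 12112 genes were called. The osteoblasts libraries then left both had high *Hbb-bt*. Without bone replicate 2 *C3* came to 0.34, and without bone replicate 1 *C3ar1* came to -0.70. With bone replicate 3 against osteoblasts replicate 1 alone, the pair with blood genes high in bone and low in osteoblasts, *C3* was at -4.14 and *C3ar1* at 3.60, a value with no test.

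**Figure D3:**
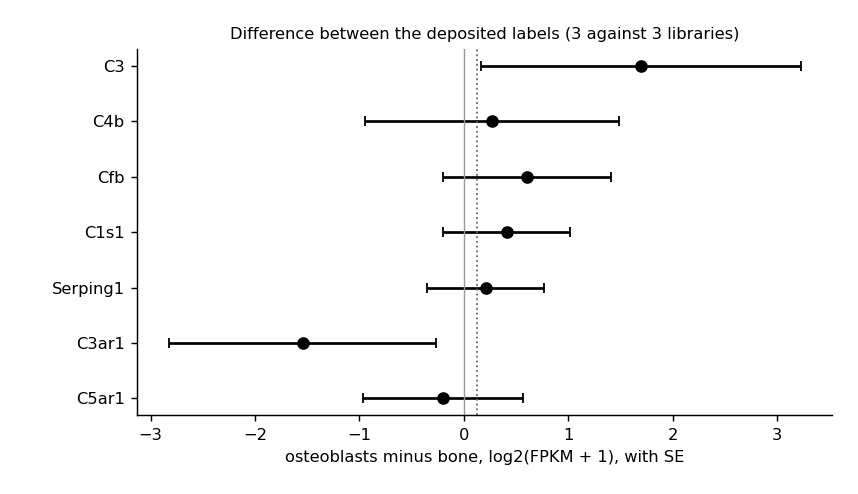
Difference between the labels, osteoblasts minus bone, on the log2(FPKM + 1) scale for the 7 complement genes tested, with bars of 1 SE from limma over 3 against 3 libraries. The dotted line is the median of all genes tested, 0.12, and the estimates run from -1.55 for *C3ar1* to 1.70 for *C3*.

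The plot of label differences shows how wide these errors are. The spread within a label had a median SD of 1.29 on the log2 scale for the 7 genes and 0.59 over all genes tested. *C3*, *C4b* and *C3ar1* each had a range over the libraries wider than that of at least 97.5% of the genes tested, and *Cfb* and *C5ar1* wider than that of 94.1% and 90.7%.

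The wider complement list, 52 genes in 8 roles that include the 9 genes, had 40 named rows, 18 of them at 10 FPKM or more in some library and 21 tested. With all 6 libraries none of the 21 was called between the labels by limma, where the smallest unadjusted p was 0.147, for *Vsig4*, and none separated the labels. Without osteoblasts replicate 1, *Fcnb*, *Masp1* and *Vsig4* were called beside *C3* and *C3ar1*, with limma adjusted p of 0.00684, 0.0324 and 0.0379. In that setting 300 of all 12112 genes tested were called. *Fcnb* and *Vsig4* were called without bone replicate 3 (limma adjusted p = 0.0489 for both), where 77 of all genes were. *Fcnb* was called when replicate numbers entered as a block (limma adjusted p = 0.0427), where 49 of all genes were. By *Hbb-bt*, 10 were higher in all 3 libraries with high *Hbb-bt*, where 38.4% of all genes tested were, 5 were lower, where 16.9% were, and 6 overlapped. Without the 7 genes above these counts were 6, 4 and 4 of 14.

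In the classical route, *C1qa* and *C1qb*, which encode chains of C1q and are strongly expressed by macrophages, were the most abundant complement genes with a named row in the libraries with low *Hbb-bt*. With high *Hbb-bt*, *Cfd* exceeded *C1qb*. *C1qa* was at 1156, 575 and 176 FPKM in bone and 633, 241 and 173 FPKM in osteoblasts. *C1qb* was at 728, 360 and 99.2 FPKM in bone and 444, 139 and 107 FPKM in osteoblasts. Both were lower in all libraries with high *Hbb-bt*, as *C3ar1* was, but by 2.38-fold and 2.59-fold at the nearest pair.

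The lectin route held the sharpest contrast. *Fcnb*, which encodes ficolin B, a lectin of the myeloid lineage, was listed at 0 in all 3 libraries with low *Hbb-bt* and was at 97.1, 101 and 107 FPKM in bone replicate 3 and osteoblasts replicates 2 and 3. *Masp1*, a protease of this route, was at 17.8, 7.53 and 9.86 FPKM with low *Hbb-bt* and at 0.321 FPKM or less with high *Hbb-bt*. *Mbl2* was listed at 0 throughout.

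Of the alternative route, *Cfd*, which encodes factor D and is abundant in fat cells, was at 101, 5.09 and 140 FPKM in bone and 24.2, 163 and 109 FPKM in osteoblasts. Bone replicate 1 came within 1.07-fold of the libraries with high *Hbb-bt*. *Cfp*, for properdin, which stabilises the convertase, was at 26.7 to 69.6 FPKM and overlapped.

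Regulators and receptors were mixed. *Clu*, for the secreted regulator clusterin, was high and low in the same libraries as *C3*, at 71.6 to 98.5 FPKM with high and 1.53 to 10.0 FPKM with low *Hbb-bt*. The membrane cofactor gene *Cd46*, whose row also spans *Cr1l*, was at 10.6 to 23.4 FPKM and overlapped. *Vsig4*, a receptor for C3b on resident macrophages, was at 15.2, 9.63 and 4.23 FPKM with low *Hbb-bt* and listed at 0 with high *Hbb-bt*. The integrin chains of complement receptor 3 did not follow it: *Itgam* was at 29.6 to 67.8 FPKM and overlapped, and *Itgb2* was at 94.7 to 97.3 FPKM with high and 42.4 to 78.0 FPKM with low *Hbb-bt*.

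The end of the cascade was nearly absent from these RNAs. None of the 6 terminal pathway genes reached a mean of 1 FPKM or was tested, and *C8a*, *C8b* and *C9* were listed at 0 in all libraries, as were the regulators *Cfi* and *C4bp*. Of the terminal genes, *C8g* was at 0 to 0.936 FPKM, and *C6* at 0.508, 0 and 0.229 FPKM in bone and 0.609, 0.801 and 0.625 FPKM in osteoblasts, so that its labels did not overlap at these low levels. *Hc*, which encodes C5, the source of the ligand of *C5ar1*, was at no more than 0.009 FPKM. *C1qc*, *C1rb*, *Fcna*, *C4a*, *Cd59a*, *Cd59b*, *Cr1l*, *Itgax* and *Cd93* were among the genes with no named row, like *C2* and *C1ra*.

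**Figure D4:**
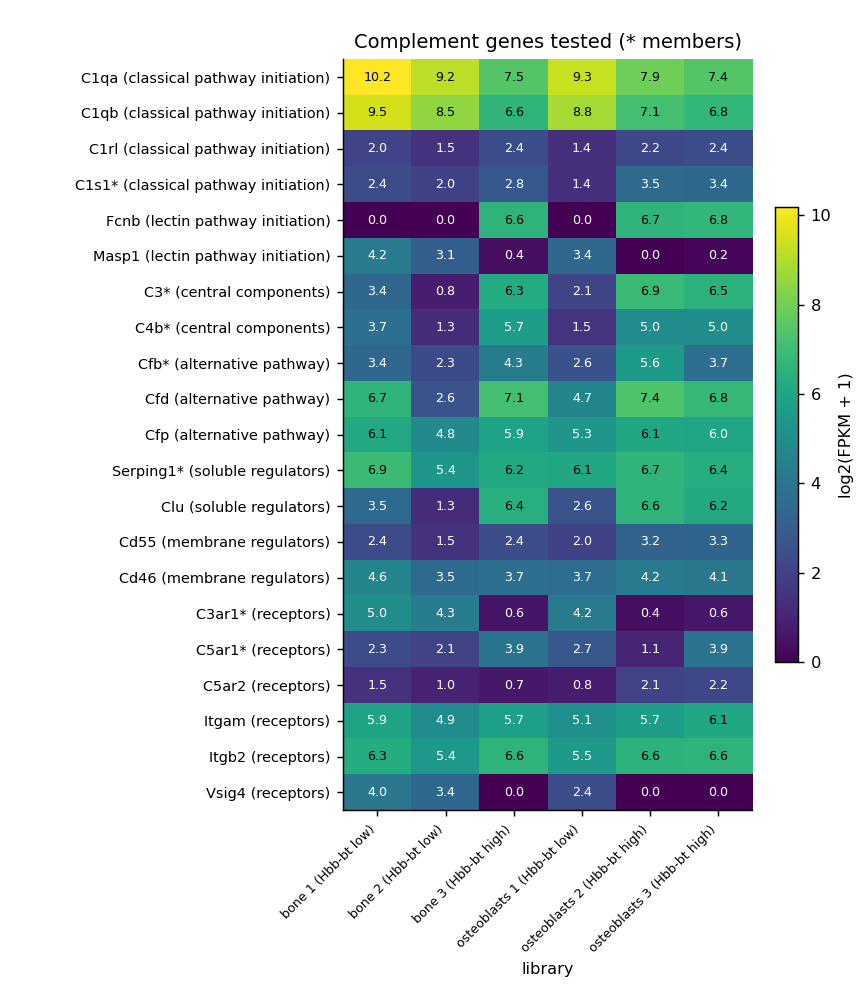
log2(FPKM + 1) of the 21 complement genes tested (rows, by role, with an asterisk for those described one by one) in the 6 libraries (columns, marked by *Hbb-bt* above or not above 1000 FPKM); brighter cells are higher. *C1qa*, *C1qb*, *Masp1*, *C3ar1* and *Vsig4* are darker in the 3 columns with high *Hbb-bt*, while *Fcnb*, *C3*, *C4b* and *Clu* are brighter there.

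The heat map of the list sets these genes beside each other. Cell type markers moved with the same libraries. Over the 8 macrophage markers with a row, 7 were lower in all 3 libraries with high *Hbb-bt*, where 16.9% of all genes tested were. *Msr1*, a scavenger receptor, was at 0.393 to 1.06 against 42.0 to 109 FPKM. *Marco*, another, was at 0.281 to 5.88 against 126 to 341 FPKM. *C3ar1*, *C1qa*, *C1qb*, *Masp1* and *Vsig4* stood in that order of sets. All 9 neutrophil markers with a row, all 5 erythroid, all 5 B cell and all 3 skeletal muscle markers were higher in the same libraries. So were *C3*, *C4b*, *Cfb* and *C1s1*, and 38.4% of all genes tested. With the named genes rescaled to the same sum, 48.6% of all genes were lower and 21.4% higher. The markers were not counted on that scale. Of the hepatocyte markers *Alb*, *Ttr* and *Fgb* were listed at 0 in every library and *Apoa1* was at no more than 0.059 FPKM, while *Serpina1a* was at 6.62 to 8.07 FPKM with high *Hbb-bt* and at 0 otherwise. The part of blood, marrow, muscle or macrophage RNA in the complement values was not tested. In bulk RNA, fewer cells of a type and less RNA per cell cannot be told apart.

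Markers of the labelled tissue were present on both sides. The 7 osteoblast markers with a row summed to 5258 to 8488 FPKM with low and 5566 to 6599 FPKM with high *Hbb-bt*, and the 6 stromal markers to 619 to 1498 and 278 to 410 FPKM. The stromal sum was mostly *Col3a1*. Of the 6 markers 2 were lower and 2 higher in all libraries with high *Hbb-bt*, where 16.9% and 38.4% of all genes tested were. The higher ones were *Dcn* (81.1 to 88.6 against 7.81 to 15.9 FPKM) and *Lum* (16.5 to 17.4 against 1.18 to 5.55 FPKM). The 4 osteocyte markers were split. *Dmp1*, the most abundant, was at 50.0 to 127 FPKM with low and 22.5 to 24.2 FPKM with high *Hbb-bt*, and the sum was 55.3 to 133 and 45.4 to 51.7 FPKM. *Sost*, which marks cells embedded in bone matrix, was at 15.8 to 22.7 FPKM in the 3 libraries with high *Hbb-bt*, osteoblasts replicates 2 and 3 among them, and at 0.066 to 0.198 FPKM in the others, bone replicates 1 and 2 among them. *Ibsp*, for bone sialoprotein, was at 986 to 1278 FPKM with low and 43.1 to 91.3 FPKM with high *Hbb-bt*, and *Bglap2*, for osteocalcin, at 264 to 513 and 1641 to 1959 FPKM.

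**Figure D5:**
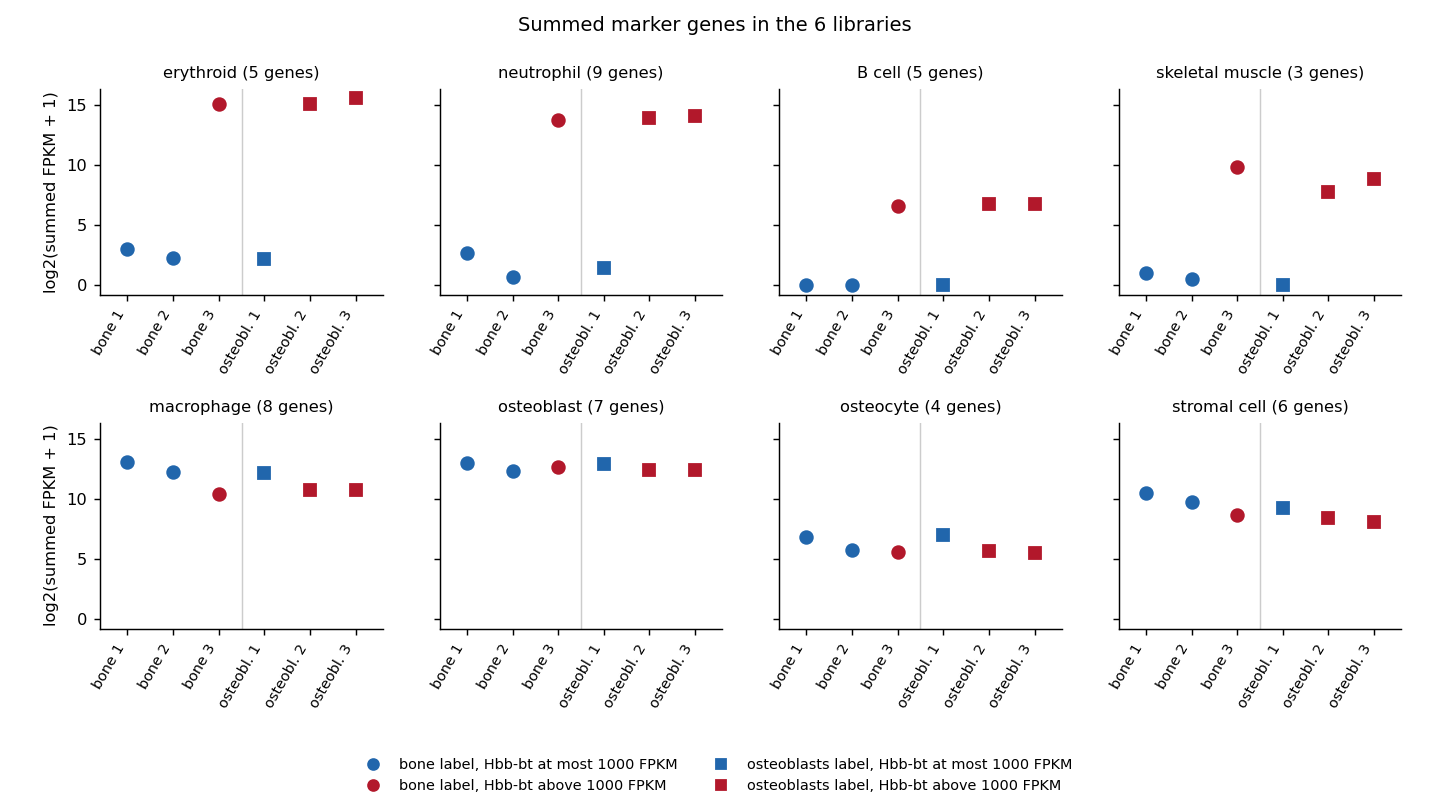
log2 of the summed FPKM plus 1 of the marker genes of 8 cell types in each library, with the number of markers that had a row; circles stand for the bone label, squares for the osteoblasts label, and red for *Hbb-bt* above 1000 FPKM. Erythroid, neutrophil, B cell and skeletal muscle sums are far higher in the red libraries, and the osteoblast sums overlap. The macrophage, stromal and osteocyte sums are lower in the red libraries, the macrophage one mostly through *Lyz2* and the stromal one mostly through *Col3a1*.

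The plot of marker sums shows bone replicate 3 beside osteoblasts replicates 2 and 3 in the erythroid, neutrophil, B cell, muscle and macrophage lists.

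Genes with a profile most like each complement gene were taken by Pearson r of log2(FPKM + 1) over the 6 libraries, which mostly reflects the *Hbb-bt* sets. For *C3ar1* the closest was *Stab1*, a scavenger receptor of macrophages and sinusoidal endothelium, at 292 to 558 FPKM with low and 16.7 to 18.1 FPKM with high *Hbb-bt* (r = 0.999). However, 573 genes reached r = 0.95 with *C3ar1*. For *C3* they were *Eif1ad* and *Vasp*, an actin regulator, both at r = 0.999, but 2402 genes reached r = 0.95. For *C4b* they were *B130055M24Rik* and *Cdan1* (r = 0.998 and 0.997), for *Cfb* *Gm13586* and *Gm5424* (0.992 and 0.991), for *C1s1* *Rpl30-ps3* and *Rbmx* (0.998 and 0.993) and for *Serping1* *Rad1* and *Snx3* (0.999 and 0.997). The genes that reached r = 0.95 numbered 1591 for *C4b*, 65 for *Cfb*, 315 for *C1s1* and 160 for *Serping1*. *C5ar1* had only 1 gene at r = 0.95 or more, *Irf2bp1* (0.954), which was likewise lowest in osteoblasts replicate 2, at 1.59 FPKM, and *Ptprv* came next (0.909). Among the 7 genes themselves, *C3* and *C4b* were the most alike (r = 0.956) and *C3* and *C3ar1* the most opposed (r = -0.905), again over 6 libraries.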

How the data were processed

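RNA-seq of 3 bone and 3 osteoblasts libraries was used. By the study's methods and the submitters' processing notes, the authors placed paired reads of 75 bp on GRCm38 using HISAT2 2.0.5, handled alignments with SAMtools 1.7 and estimated expression with StringTie 1.3.3. The authors deposited coverage, FPKM and TPM for 93285 features per library and no read counts. The deposited FPKM are scaled to transcript length and mapped fragments, so large shares on unnamed features lower all named genes, and the deposited TPM rescale them to a fixed sum per library. The deposited coverage is the mean read depth per base and served to read off the depth.

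Rows of one name were summed. log2(FPKM + 1) of the 12112 genes averaging 1 FPKM or more was compared between the labels with limma 3.58.1 in R 4.3.3 (lmFit, eBayes with a trend, Benjamini-Hochberg over all genes, threshold 0.05). Ratios were compared by exact permutation. limma was tested on simulated data first. Tables and plots used Python 3.11.15, pandas 2.3.3, numpy 2.4.6, scipy 1.17.1 and matplotlib 3.10.9. Gene spans and promoters are RefSeq's on GRCm38.p6.

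The genes and lists were chosen with earlier results of these data known. Named in the text are the 9 genes, genes of the complement list at 10 FPKM or more, at 0 or without a named row, the 2 genes most like each gene, and markers. Some of these genes are not reported here. *Hc*, *Apoa1*, *C6* and *C8g* were named after their values were seen. Alternatives were pseudocounts, filters, scalings, TPM, no trend, a replicate block and left-out libraries. The planned ratio of *C1s1* to *C1ra* could not be made, and the unnamed row took its place.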

Additional observations from a re-analysis of the deposited data

Results flagged for a closer look

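Signal of complement genes was also found in rows without a gene name, which entered no test. The unnamed row over *C1qc* reached 878 FPKM, in bone replicate 1, and was at 456 and 484 FPKM in the other libraries with low *Hbb-bt* and at 115 to 141 FPKM in those with high *Hbb-bt*. The unnamed row over *Cd93* reached 71.9 FPKM, in bone replicate 1, and was lowest at 13.1 FPKM in bone replicate 3. The unnamed row over *C1ra* and *C1rb* reached 20.2 FPKM, in osteoblasts replicate 2. The row over *Itgax*, which also spans *Itgad*, reached 19.8 FPKM, in osteoblasts replicate 3, and was at 0.743 to 1.40 FPKM in the libraries with low *Hbb-bt*. The row over *Cd59a* and *Cd59b* ran from 5.44 to 11.9 FPKM.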

How the results depend on the processing

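Of 232 values recomputed under alternatives, 195 were held as kept. A difference or ratio was kept when its direction and side of the threshold stayed. Where there was no test, it had to move by less than the spread between replicates, in some cases with a change of sign. A count of genes was also kept when it came near the first count, as 3 or 5 of the 7 genes did against 4. Other pseudocounts, filters, scalings, TPM and limma without a trend left the calls between labels at 0. With the replicate block, limma calls came to 46 in the direction of osteoblasts and 3 in that of bone, with *Fcnb* (adjusted p = 0.0427) and none of the 7 genes among them. Bone and marrow came, as the study's methods read, from the same mice, but no source says that a replicate number marks a mouse. Deviations of same-numbered libraries correlated at 0.84, -0.75 and 0.83, which follows the *Hbb-bt* sets, so whether the numbers pair the samples cannot be told from them. Leaving out each library gave 0 to 262 higher and 0 to 38 lower calls. The highest came without osteoblasts replicate 1, and 66 higher and 11 lower came without bone replicate 3. In the same series of single omissions the median over the 7 genes ranged from -0.18 to 1.08, the log2 ratio of *C3ar1* to *C5ar1* from -4.34 to -0.32, *C4b* ranged from -0.87 to 1.43, *Serping1* from -0.18 to 0.59, *C5ar1* from -0.87 to 0.55, *Cfb* from -0.21 to 1.3, and the log2 ratio of *C1s1* to the unnamed row from -0.21 to 0.46. Without osteoblasts replicates 2 and 3 the differences were -1.36 (*C3*), -2.05 (*C4b*), -0.78 (*Cfb*), -0.94 (*C1s1*), -0.083 (*Serping1*) and 0.90 (*C3ar1*). Without bone replicates 1 and 2 they were -1.08 (*C3*), -1.87 (*C4b*), -0.37 (*Cfb*), -0.016 (*C1s1*) and 1.16 (*C3ar1*). With bone replicate 3 and osteoblasts replicate 1 only, the median over the 7 genes was -1.37, with -4.14 (*C3*), -4.18 (*C4b*), -1.76 (*Cfb*), -1.37 (*C1s1*), -0.083 (*Serping1*) and 3.60 (*C3ar1*). The libraries left out in these settings were those whose *Hbb-bt* went against their labels. For genes that separate the *Hbb-bt* sets, such as *C3*, *C4b* and *C3ar1*, a change of sign largely follows from that choice. The reversals are therefore no separate evidence, and their cause was not tested. Scaled to named genes, 2 of 7 were higher in all libraries with high *Hbb-bt*, as were 21.4% of all genes. Without counts, no interval can be given for a single FPKM, and the 3 read pair level covers counting error only.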
